A study of Mus musculus with 9 samples.

Results

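The return of rods and cones to their dark state after light, and the calcium signal that controls it, were followed through the mRNAs of 10 mouse genes in whole retina. The genes were *Guca1a*, *Guca1b*, *Gucy2e*, *Gucy2f*, *Rgs9*, *Rgs9bp*, *Gnb5*, *Grk1*, *Rcvrn* and *Slc24a1*, chosen by symbol for their known roles, out of 25239 gene names listed. Each of the 10 had a single entry in all 9 libraries, and all 10 were among the 15198 genes whose mean level reached 1 TPM (a transcript level corrected for gene length and library size). The libraries came from 9 C57BL/6J mice at P42, each from a pair of whole retinas, and comprised 3 wild type (+/+), 3 heterozygous *Rbpms*-CreERT2/+ (Cre/+) and 3 homozygous *Rbpms*-CreERT2/CreERT2 (Cre/Cre) mice. In the knock-in allele, a P2A-CreERT2 cassette was joined to the end of the coding sequence of *Rbpms*, a gene that marks retinal ganglion cells, so that its promoter drives a Cre recombinase that needs tamoxifen to act. No tamoxifen is named for these mice in the labels, and no floxed allele or reporter is named either. The comparison asks whether the retinal transcriptome differs between carriers of the allele and wild type.

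In darkness, cGMP holds the cation channels of the outer segment open, and light lowers cGMP through the visual pigment, transducin and phosphodiesterase. Recovery needs each of these steps to be switched off: a receptor kinase phosphorylates the activated pigment, a GTPase-accelerating complex switches transducin off, and guanylate cyclases make cGMP again. Calcium, which enters through the channels and is pumped out by an exchanger, falls in light, and calcium-sensing proteins pass that fall on to the cyclases and to the kinase.

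The library labels were first checked. *Rbpms*, the targeted gene, was at 38.4 to 43.4 TPM in the +/+ libraries, at 31.3 to 33.1 with Cre/+ and at 19.1 to 24.2 with Cre/Cre, 3 ranges that did not overlap. It was the only gene called in Cre/Cre against +/+ (log2 fold change -0.96; limma, adjusted p = 0.000581). It was not called in Cre/+ against +/+ (-0.36; adjusted p = 0.355) or in Cre/Cre against Cre/+ (-0.60; adjusted p = 0.0567). The paper, which also required a fold change above 2, reported no significant difference in *Rbpms* mRNA. By immunostaining, a measure of protein, it also reported that the 3 genotypes were alike in RBPMS signal and in RBPMS-positive cell number. The 4 rod markers *Nrl*, *Nr2e3*, *Gnat1* and *Pde6b* summed to 16986 to 19970.2 TPM over the 9 libraries and the 5 cone markers (*Opn1sw*, *Opn1mw*, *Arr3*, *Gnat2* and *Pde6h*) to 2267 to 2521 TPM. Cre/Cre replicate 1 stood apart. The ribosomal RNA gene Rn45s took 9.21% of its TPM, against 0.0827% to 0.336% in the other 8 libraries. *Xist* was at 2.08 to 3.16 TPM in Cre/+ replicate 3, Cre/Cre replicate 1 and Cre/Cre replicate 3, and at 516 to 585 TPM in the other 6, so the genotypes differed in their mix of sexes. The aligned sequence per library, read from the deposited coverage and FPKM, was 4.05 to 4.65 gigabases.

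None of the 10 genes differed between genotypes past the limit of an adjusted p of 0.05. Against +/+, the mean TPM of the 10 genes ranged from 92.1% (*Guca1b*) to 122% (*Gucy2f*) in Cre/+ and from 89.7% (*Guca1b*) to 105% (*Rgs9*, *Gucy2f*) in Cre/Cre. The background was low too, as 0.00658% of all genes tested were called in Cre/+ against +/+, 0.00658% in Cre/Cre against +/+ and 0.0132% in Cre/Cre against Cre/+. In whole retina, fewer cells of a type and less RNA per cell cannot be told apart. As the 3 comparisons share libraries, their values are set side by side below and not treated as separate evidence.

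The 10 genes spanned a wide range of levels, as TPM allows since it is corrected for length. In +/+, *Guca1b* had the highest mean at 3316 TPM, followed by *Rcvrn* at 2354, *Guca1a* at 2146, *Slc24a1* at 1085, *Grk1* at 1075, *Gnb5* at 891, *Rgs9* at 848, *Rgs9bp* at 608, *Gucy2e* at 294 and *Gucy2f* at 132. Neighbours in this order overlapped in their libraries for *Slc24a1* with *Grk1* and for *Gnb5* with *Rgs9*, and all other neighbours were separate. The order was the same in Cre/Cre. In Cre/+, *Rgs9* (968 TPM) stood above *Gnb5* (917 TPM), and the ranges of *Rcvrn* and *Guca1a* overlapped. By its mean over the 9 libraries, *Guca1b* ranked 13th among all gene names and *Gucy2f* ranked 1292nd. Together the 10 genes made up 1.13% (Cre/Cre replicate 1) to 1.31% (Cre/+ replicate 2) of the TPM of a library.

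**Figure D1:**
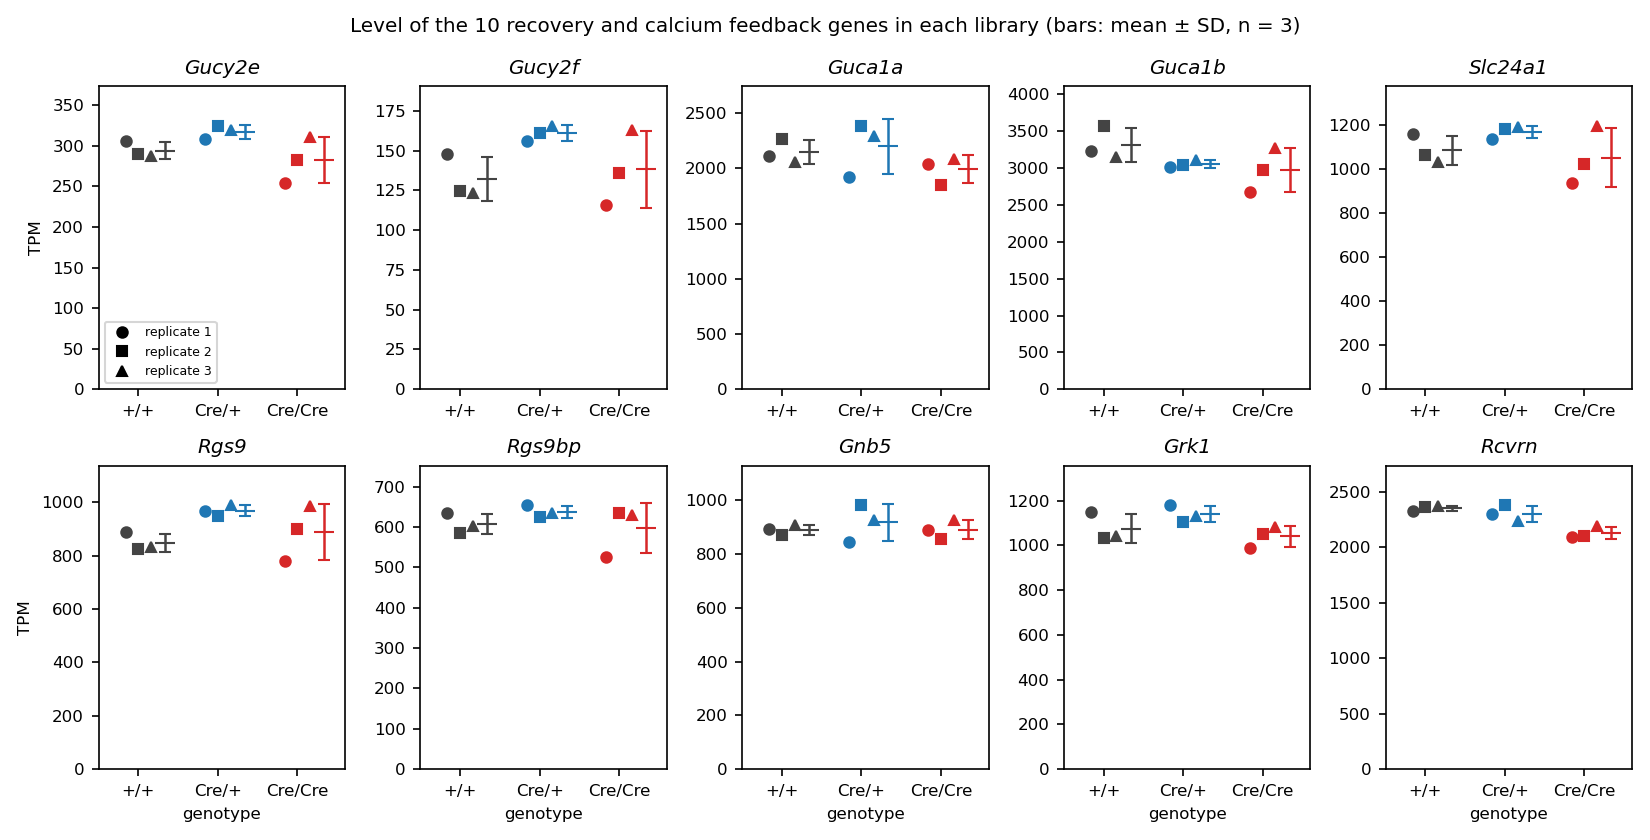
Level of each gene in TPM (y axis, from 0) in the 9 libraries by genotype (x axis). Symbols are single libraries with 1 shape for each replicate number, and bars give the mean ± SD (n = 3). The means of the knock-in genotypes lie at 89.7% (*Guca1b*, Cre/Cre) to 122% (*Gucy2f*, Cre/+) of +/+. Cre/Cre replicate 1 (red circle) is the lowest library in 8 of the 10 panels.

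The membrane guanylate cyclases of the outer segment resynthesize cGMP. *Gucy2e* encodes the one used by both cones and rods, and *Gucy2f* a related enzyme of rods. *Gucy2e* (chr11:69218117-69237022, minus strand, mm10) was at 306, 289.9 and 287 TPM in +/+ replicates 1 to 3, at 308, 325 and 319.7 TPM in Cre/+, and at 255, 283 and 312 TPM in Cre/Cre. All 3 Cre/+ values lay above all 3 +/+ values, and the Cre/Cre libraries covered a range from below both groups to within that of Cre/+. The log2 fold change was 0.11 (SE 0.08; limma, adjusted p = 0.607) for Cre/+ and -0.06 (SE 0.08; adjusted p = 0.941) for Cre/Cre against +/+. *Gucy2f* (chrX:142079289-142196936, minus strand) was at 148, 125 and 123 TPM in +/+, at 156, 161 and 166 TPM in Cre/+, and at 116, 136 and 163 TPM in Cre/Cre. Here too the Cre/+ libraries lay above the +/+ libraries, while Cre/Cre spanned both. With a CV of 13.4% over the 9 libraries, *Gucy2f* varied most of the 10 genes. Its log2 fold change in Cre/+ was 0.29 (SE 0.11; unadjusted p = 0.0191; limma, adjusted p = 0.404), the farthest from 0 among the 10 genes in any comparison, with a 95% interval of 1.04-fold to 1.44-fold. In Cre/Cre against +/+ it was 0.06 (adjusted p = 0.970). *Gucy2f* is X-linked. In the 3 libraries with little *Xist* it was at 116 to 166 TPM and in the other 6 at 123 to 161 TPM.

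*Gucy2e* exceeded *Gucy2f* in every library, by 1.91 to 2.33 times. The mean ratio (SD, n = 3) was 2.24 ± 0.151 for +/+, 1.97 ± 0.0442 for Cre/+ and 2.07 ± 0.148 for Cre/Cre. The genotypes did not differ in this ratio past the limit (two-sided exact permutation test, p = 0.1, adjusted p = 0.25 over 5 ratios). The other guanylate cyclases, a family shared with the natriuretic peptide receptors and the soluble nitric oxide sensor, were read as a list. Of 7 listed, 5 passed the filter on level, and none was called in any comparison. *Gucy1a1*, a subunit of the soluble enzyme, had the highest mean at 142 TPM, beside the 144 TPM of *Gucy2f*, over the 9 libraries, and *Gucy2d*, the cyclase of olfactory neurons, the lowest at 0.0212 TPM.

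Across the libraries, *Slc24a1* followed *Gucy2e* closely (Pearson r = 0.970 over 9 libraries, a description). *Gucy2f* followed *Rgs9* as closely (r = 0.970), but the sequence of *Rgs9* is not shown. Each of these genes was lowest in Cre/Cre replicate 1, and r was not taken without that library. The sequences upstream of the cyclases, of *Guca1a* and of *Slc24a1* are shown because the cyclases and their sensor are partners in making cGMP, and because of the r of *Slc24a1* with *Gucy2e*. They are the 250 bases before the annotated start from RefSeq (GRCm38.p6), on the strand of the gene and 5′ to 3′, at chr11:69237023-69237272 for *Gucy2e*, chrX:142196937-142197186 for *Gucy2f*, chr17:47400607-47400856 for *Guca1a* and chr9:64951621-64951870 for *Slc24a1*, all on the minus strand. Capitals mark the letters TAATCC, or GGATTA where they stand on the opposite strand, the core that the photoreceptor homeodomain factor CRX is known to bind.
Gucy2e: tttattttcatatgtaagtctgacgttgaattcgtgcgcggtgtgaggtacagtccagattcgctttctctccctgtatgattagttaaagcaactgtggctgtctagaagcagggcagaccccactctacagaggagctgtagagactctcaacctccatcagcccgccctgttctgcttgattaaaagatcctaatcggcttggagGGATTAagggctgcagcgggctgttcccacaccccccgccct
Gucy2f: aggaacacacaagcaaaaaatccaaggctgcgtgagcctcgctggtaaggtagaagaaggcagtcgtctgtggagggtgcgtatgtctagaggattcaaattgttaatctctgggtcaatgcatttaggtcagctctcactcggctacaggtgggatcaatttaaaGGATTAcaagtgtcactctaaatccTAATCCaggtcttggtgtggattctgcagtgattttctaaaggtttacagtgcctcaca
Guca1a: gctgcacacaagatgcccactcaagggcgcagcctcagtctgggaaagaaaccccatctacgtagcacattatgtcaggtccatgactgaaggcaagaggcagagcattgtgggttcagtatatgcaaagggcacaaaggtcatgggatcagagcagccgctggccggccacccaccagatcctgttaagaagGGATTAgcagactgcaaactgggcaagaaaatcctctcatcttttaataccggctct
Slc24a1: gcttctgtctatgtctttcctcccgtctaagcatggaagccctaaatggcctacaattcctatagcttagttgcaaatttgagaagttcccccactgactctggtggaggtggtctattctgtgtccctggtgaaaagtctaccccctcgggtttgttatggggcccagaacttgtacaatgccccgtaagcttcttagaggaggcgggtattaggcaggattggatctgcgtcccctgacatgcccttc
The match in *Gucy2e* began 42 bases before the start, that in *Guca1a* 57 bases, and those in *Gucy2f* 84 and 59 bases. The sequence of *Slc24a1* held no match. The RefSeq table held 7 of the 10 genes, and *Guca1b*, *Rgs9bp* and *Rcvrn* were not matched. TAATCC, searched on both strands, was found in 4 of these 7 promoters, the other being *Gnb5*, and in 6.25% of the 32851 promoters of the table. TGCTGA, the core of sites known for the rod factor NRL, was found on either strand in 1 of the 7, *Rgs9*, and in 16.1% of all promoters. The 2 searches do not overlap in letters, and a match is a description of the sequence only.

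*Guca1a* and *Guca1b* encode the calcium sensors that switch the cyclases on when calcium falls. The genes lie tail to tail on chromosome 17, *Guca1b* at chr17:47385393-47392967 on the plus strand and *Guca1a* at chr17:47394557-47400606 on the minus strand, with 1589 bases between them. *Guca1a* was at 2113, 2268 and 2058 TPM in +/+, at 1918, 2388 and 2293 TPM in Cre/+, and at 2043, 1853 and 2087 TPM in Cre/Cre. The genotypes overlapped, and the lowest and the highest library of Cre/+ were 1918 and 2388 TPM, a wider range than in either other group. *Guca1b* was at 3225, 3576 and 3147 TPM in +/+, at 3008, 3045 and 3114 TPM in Cre/+, and at 2680.4, 2975 and 3267 TPM in Cre/Cre. All 3 Cre/+ libraries lay below all 3 +/+ libraries, whereas Cre/Cre overlapped both. Against +/+, the log2 fold change of *Guca1b* was -0.12 (SE 0.08; limma, adjusted p = 0.585) in Cre/+ and -0.16 (SE 0.08; adjusted p = 0.742) in Cre/Cre, and that of *Guca1a* was 0.03 and -0.11 (SE 0.08; adjusted p = 0.919 and 0.871).

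The ratio of *Guca1a* to *Guca1b* ran from 0.623 to 0.784, without a difference between genotypes past the limit (exact permutation test, p = 0.557). The sensors together were 10.6 to 14.1 times the cyclases together, with group means (SD, n = 3) of 12.8 ± 1.18 for +/+, 10.97 ± 0.316 for Cre/+ and 11.9 ± 0.795 for Cre/Cre. This sum was not among the ratios tested. *Rd3*, which is known to hold the cyclases inactive on their way to the outer segment, was at 161 TPM on average for +/+, 151 for Cre/+ and 139.7 for Cre/Cre, and was not called (adjusted p = 0.619 in Cre/Cre against +/+).

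*Slc24a1* encodes the exchanger of the rod outer segment that carries calcium and potassium out in return for sodium. At chr9:64922861-64951620 on the minus strand, it was at 1159.6, 1065 and 1032 TPM in +/+, at 1138, 1181 and 1189.8 TPM in Cre/+, and at 937, 1022 and 1198 TPM in Cre/Cre. The lowest and the highest of the 9 libraries were both Cre/Cre. The log2 fold change was 0.11 in Cre/+ and -0.05 in Cre/Cre against +/+ (SE 0.09; limma, adjusted p = 0.639 and 0.959). Of its relatives, *Slc24a2*, the exchanger of cones, averaged 39.2 TPM and *Slc24a4* 77.4 TPM. *Slc24a2* had the smallest p of the other recovery and feedback genes in Cre/+ against +/+, with a log2 fold change of 0.21 (adjusted p = 0.488).

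*Rgs9*, *Rgs9bp* and *Gnb5* encode the GTPase-accelerating protein of transducin, the anchor that holds it at the disc membrane, and the G protein beta subunit that is its obligate partner. *Rgs9* (chr11:109225355-109298181, minus strand) was at 888, 824 and 831 TPM in +/+, at 968, 948 and 988 TPM in Cre/+, and at 778, 899 and 986 TPM in Cre/Cre. All Cre/+ libraries lay above all +/+ libraries, and Cre/Cre ran from below +/+ to the top of Cre/+. The log2 fold change was 0.19 in Cre/+ (SE 0.08; unadjusted p = 0.0329; limma, adjusted p = 0.429) and 0.06 in Cre/Cre (SE 0.08; adjusted p = 0.946). *Rgs9bp* (chr7:35578996-35585582, minus strand) was at 636, 586 and 602 TPM in +/+, at 654, 624 and 635 TPM in Cre/+, and at 526, 636 and 630.0 TPM in Cre/Cre. Apart from Cre/Cre replicate 1, its 8 libraries lay between 586 and 654 TPM. *Gnb5* (chr9:75306288-75345923, plus strand) was at 893, 871 and 909 TPM in +/+, at 845, 981 and 926 TPM in Cre/+, and at 889.9, 856 and 925 TPM in Cre/Cre, with overlap among all groups and the lowest CV of the 10 genes, 4.62%. Their log2 fold changes against +/+ were 0.07 and -0.03 for *Rgs9bp* and 0.04 and -0.00 for *Gnb5*, in Cre/+ and Cre/Cre.

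*Gnb5* is used well beyond photoreceptors, with partners in ON bipolar and other neurons, and it overlaps the antisense genes *Gm19531* and *Gm48677* on the other strand. The libraries kept strand, but how strand was set in counting is not stated in the sources used here. *Rgs9* was 0.874 to 1.14 times *Gnb5* (exact permutation test over genotypes, p = 0.346) and 1.38 to 1.56 times *Rgs9bp*. The ratio to *Rgs9bp* had means (SD, n = 3) of 1.39 ± 0.0127 for +/+, 1.52 ± 0.0381 for Cre/+ and 1.49 ± 0.0755 for Cre/Cre, and all 6 libraries with the knock-in allele lay above all 3 +/+ libraries. It had the smallest p of the 5 ratios (two-sided exact permutation test, p = 0.0679, adjusted p = 0.25), where the smallest the design allows is 0.00357. With each library left out in turn, its p ran from 0.0107 without Cre/Cre replicate 3 (adjusted p = 0.0536) to 0.143 without Cre/+ replicate 3 by the same exact permutation test, and no ratio passed 0.05 after adjustment. The 6 genes of related complexes outside the outer segment (*Rgs6*, *Rgs7*, *Rgs11*, *Rgs7bp*, *Gpr179*, *Gpr158*) were lower, from 29.1 TPM for *Gpr158* to 103 TPM for *Rgs11* on average, and 0 of 6 were called in any comparison. *Rgs7bp*, an anchor like *Rgs9bp* that serves neurons of the inner retina and brain, had the smallest p of these 6 in Cre/+ against +/+ (log2 fold change 0.21; adjusted p = 0.433) and in Cre/Cre against Cre/+ (-0.24; adjusted p = 0.740), and *Rgs11* in Cre/Cre against +/+ (-0.16; adjusted p = 0.765).

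**Figure D2:**
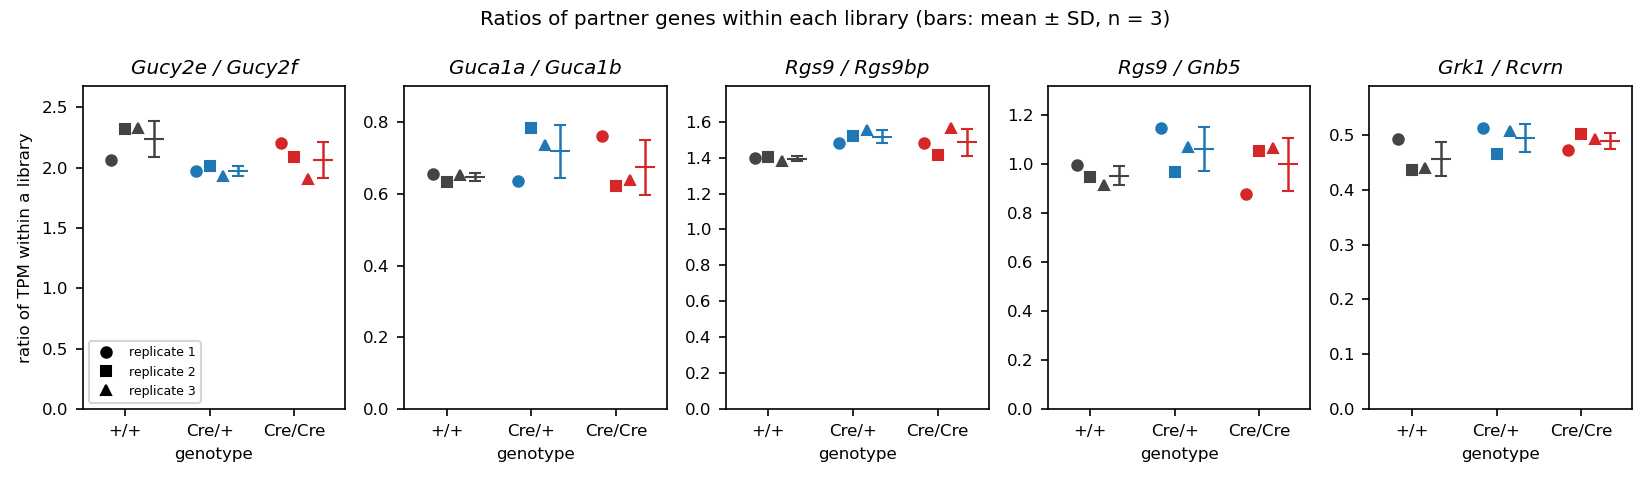
Ratio of the TPM of partner genes (y axis, from 0) within each library by genotype (x axis), with single libraries as symbols and bars for the mean ± SD (n = 3). The ratio of *Rgs9* to *Rgs9bp* reaches 1.406 at most in the +/+ libraries and is 1.414 at least in the others, and the other 4 ratios overlap between +/+ and at least 1 of the knock-in genotypes.

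*Grk1* encodes a receptor kinase of photoreceptors, and *Rcvrn* encodes recoverin, the calcium sensor that holds the kinase back while calcium is high. *Grk1* (chr8:13405081-13421949, plus strand) was at 1148, 1032 and 1044 TPM in +/+, at 1178, 1106 and 1133 TPM in Cre/+, and at 989.9, 1052 and 1081 TPM in Cre/Cre. Each Cre/Cre library lay below each Cre/+ library, while +/+ overlapped both. *Rcvrn* (chr11:67695326-67703355, plus strand) was at 2328, 2362 and 2373 TPM in +/+, at 2298, 2379.5 and 2236 TPM in Cre/+, and at 2096, 2099 and 2197 TPM in Cre/Cre. Its Cre/Cre libraries were below all libraries of both other genotypes. The log2 fold change of *Rcvrn* in Cre/Cre against +/+ was -0.14 (SE 0.06; unadjusted p = 0.0357; limma, adjusted p = 0.695), a 95% interval of 0.825-fold to 0.992-fold, and against Cre/+ it was -0.11 (SE 0.06; adjusted p = 0.740). That of *Grk1* was -0.05 against +/+ (SE 0.07; adjusted p = 0.955) and -0.13 against Cre/+ (SE 0.07; adjusted p = 0.740). *Rcvrn* overlaps *Glp2r*, on the opposite strand, over 8008 bases.

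*Grk1* was 0.437 to 0.513 times *Rcvrn* in the 9 libraries (exact permutation test over genotypes, p = 0.221). The 5 other receptor kinases, *Grk2* to *Grk6*, were far lower, from 9.99 TPM for *Grk4* to 69.2 TPM for *Grk2* on average, and 0 of 5 were called. The smallest p among them belonged to *Grk6* in Cre/+ against +/+ (log2 fold change -0.16; adjusted p = 0.469), *Grk2* in Cre/Cre against +/+ (-0.14; adjusted p = 0.818) and *Grk3* in Cre/Cre against Cre/+ (-0.17; adjusted p = 0.765). Recoverin belongs to the neuronal calcium sensors. Of the 6 relatives listed, *Vsnl1* was the highest at 170.5 TPM and *Ncs1* the lowest at 42.4 TPM on average, and 0 of 6 were called in any comparison. *Hpca*, encoding hippocalcin, had the smallest p of them in both comparisons with +/+, with means of 172 ± 11.9 TPM for +/+, 149 ± 4.72 for Cre/+ and 146 ± 4.93 for Cre/Cre (SD, n = 3; log2 fold change -0.20 and -0.23, adjusted p = 0.404 and 0.581), and *Vsnl1* in Cre/Cre against Cre/+ (-0.19; adjusted p = 0.740).

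Read across the 10 genes, Cre/+ against +/+ gave log2 fold changes from -0.12 (*Guca1b*) to 0.29 (*Gucy2f*), 8 of 10 above 0, with a median of 0.08 against 0.00 for all genes tested. At an unadjusted p below 0.05 stood 2 of 10 (*Gucy2f* and *Rgs9*, both higher in Cre/+), against 10.7% of all genes. The libraries did not overlap for 4 of 10, *Gucy2e*, *Gucy2f* and *Rgs9* higher and *Guca1b* lower in Cre/+, against 22.2% of all genes. Cre/Cre against +/+ gave log2 fold changes from -0.16 (*Guca1b*) to 0.06 (*Rgs9*), 8 of 10 below 0, with a median of -0.05 against -0.02. An unadjusted p below 0.05 and libraries that did not overlap were found for 1 of 10, *Rcvrn*, against 6.97% and 10.8% of all genes. Cre/Cre against Cre/+ gave log2 fold changes from -0.23 (*Gucy2f*) to -0.04 (*Gnb5*), all 10 below 0, with a median of -0.13 against -0.03. Here 1 of 10, *Gucy2e* (-0.17; SE 0.08; unadjusted p = 0.0478; limma, adjusted p = 0.740), stood below an unadjusted p of 0.05, against 6.58% of all genes, and 2 of 10, *Grk1* and *Rcvrn*, did not overlap, against 12% of all genes. The 95% intervals of the 10 genes reached from 0.822-fold to 1.44-fold in Cre/+ and from 0.798-fold to 1.22-fold in Cre/Cre against +/+, and from 0.723-fold to 1.09-fold between Cre/Cre and Cre/+, so larger differences than these lay outside the intervals.

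**Figure D3:**
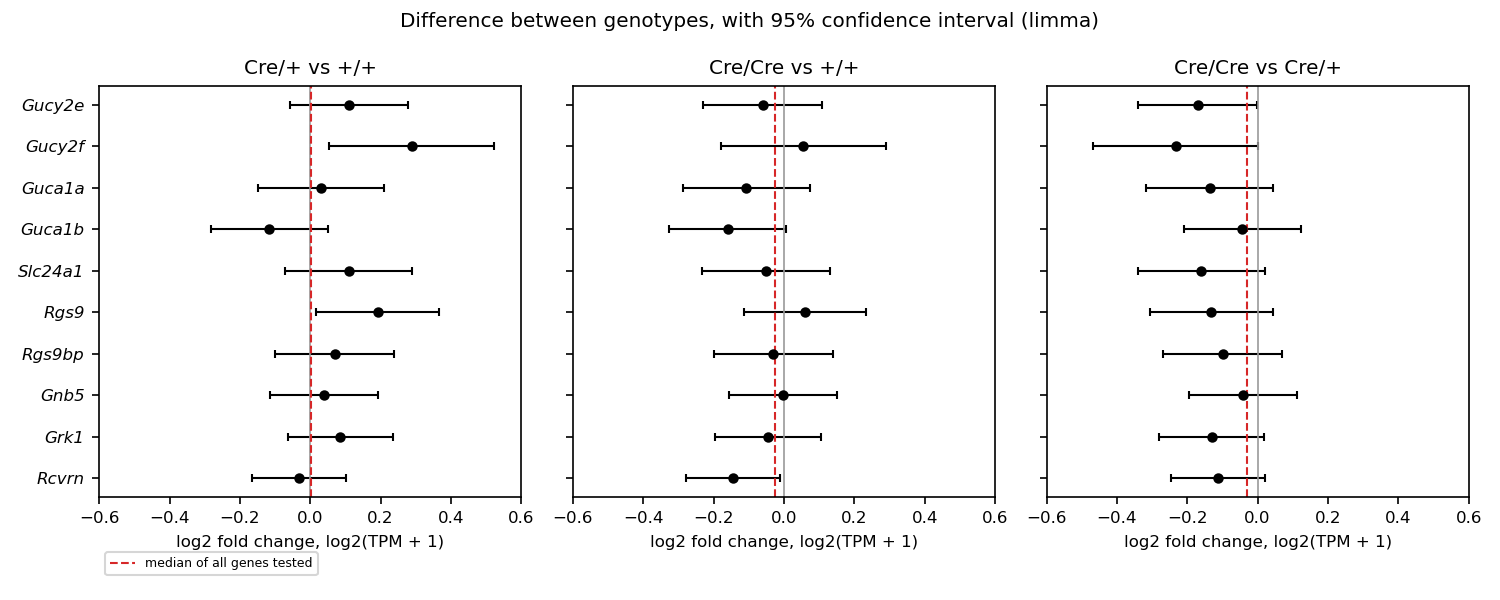
Log2 fold change on the log2(TPM + 1) scale (x axis) of each gene (y axis) in the 3 comparisons of genotypes, with 95% confidence intervals from limma. Dashed lines give the median of all genes tested (0.00, -0.02 and -0.03). Most intervals cross 0, and in Cre/Cre against Cre/+ all 10 points lie to the left of it.

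Single libraries and the scaling weighed on these directions. Cre/Cre replicate 1 held the lowest value of 8 of the 10 genes, the exceptions being *Guca1a* and *Gnb5*, and the median difference of the 10 genes from their own means there was -0.21 on the log2 scale, against -0.07 to 0.09 in the other 8 libraries. When TPM were rescaled without Rn45s, the median in that library was -0.09, close to the -0.09 of Cre/Cre replicate 2, and it held the lowest value of 3 genes. With that scaling and all 9 libraries, 5 of 10 genes in place of 8 were below 0 in Cre/Cre against +/+, with a median of -0.0027 for the 10 genes and 0.02 for all genes. With median-ratio scaling the median was -0.02 for the 10 genes and 0.0031 for all genes, and with FPKM it was -0.10 and -0.06. In Cre/Cre against Cre/+, 8 of 10 genes were still below 0 without Rn45s (median -0.086, against 0.012 for all genes). With median-ratio scaling all 10 were below 0 in that comparison (median -0.096, against 0.0029).

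Each library was also left out in turn, and the counts that follow were added after seeing the data. For Cre/Cre against +/+, 5 of 10 genes were below 0 without Cre/Cre replicate 1 (median 0.01, against 0.02 for all genes), 5 of 10 without +/+ replicate 1 and 10 of 10 without Cre/Cre replicate 3. *Rcvrn* kept an unadjusted p below 0.05 in 7 of 19 alternatives, and lost it with median-ratio scaling, without Rn45s, with *Xist* as a covariate, without the robust prior, with only the genotypes compared, and without any 1 of the libraries other than Cre/Cre replicates 1 and 3. *Gucy2e* in Cre/Cre against Cre/+ kept such a p in 7 of 19 alternatives. In Cre/+ against +/+, *Gucy2f* kept it in 16 and *Rgs9* in 13 of 19, and neither kept it without +/+ replicate 2, +/+ replicate 3 or Cre/+ replicate 3. Without Cre/Cre replicate 1, 9 of 10 genes were below 0 in Cre/Cre against Cre/+ (median -0.087, against 0.017 for all genes).

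The shares of all genes were taken in the same settings. Without Cre/Cre replicate 1, 2 of 10 genes in place of 1 had an unadjusted p below 0.05 in Cre/Cre against +/+, against 9.47% of all genes, and 2 of 10 in place of 1 did not overlap, against 25.7% of all genes with 2 libraries left. Against Cre/+, 0 of 10 in place of 1 had such a p, against 4.97% of all genes. Without Cre/Cre replicate 3, 2 of 10 had such a p against +/+ and 4 of 10 against Cre/+, where the shares of all genes were 7.8% and 12.5%. The adjusted p (limma) stayed above 0.05 for all 10 genes in each of these settings.

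**Figure D4:**
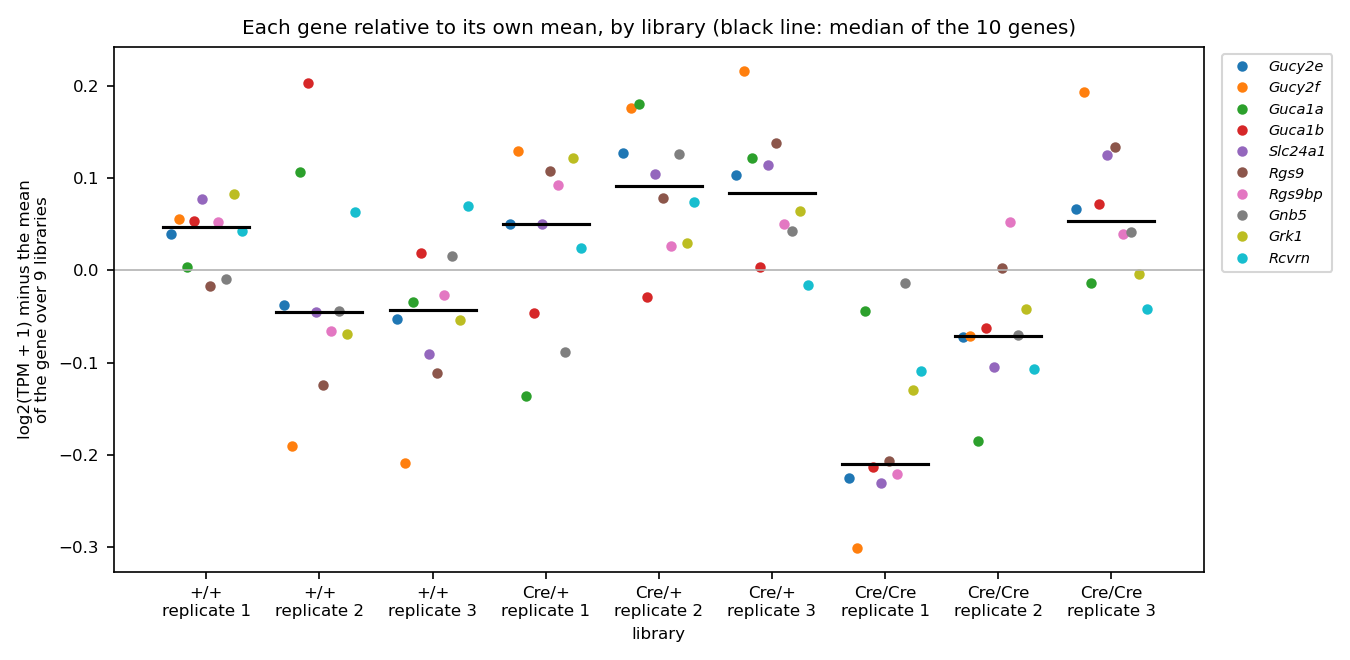
Log2(TPM + 1) of each gene minus the mean of that gene over the 9 libraries (y axis), by library (x axis), with a colour for each gene and black lines at the median of the 10 genes. The median lies at -0.21 in Cre/Cre replicate 1 and between -0.07 and 0.09 elsewhere.

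Markers of other cells were read beside these values. The 5 pigment epithelium markers summed to 20.8 to 55.5 TPM in the +/+ libraries, 42.04 to 101.2 with Cre/+ and 31.0 to 57.2 with Cre/Cre. The 6 lens markers summed to 10.7 to 201 TPM in 8 libraries and to 902 TPM in Cre/Cre replicate 2, and the 5 blood markers to 150.5 to 182, 92.5 to 105 and 185 to 300.5 TPM in the 3 genotypes. Of the blood markers, *Hbb-bt* had a listed level of 0 in the 3 Cre/+ libraries, against 8.29 to 29.8 TPM in the other 6. It was the only gene called in Cre/+ against +/+ (log2 fold change -3.54; limma, adjusted p = 0.00256), and it was also called in Cre/Cre against Cre/+ (4.22; adjusted p = 0.000448). The other blood markers went both ways. In +/+, Cre/+ and Cre/Cre, *Hba-a1* averaged 0, 29.6 and 139 TPM and *Alas2* 1.14, 1.48 and 2.49. *Hba-a2* averaged 136, 66.8 and 54.1 TPM and *Hbb-bs* 17.1, 0 and 26.8. The 4 ganglion cell markers, the targeted gene *Rbpms* among them, summed to 668 to 694, 599 to 614 and 488 to 565 TPM. The 3 ranges of this sum did not overlap, and neither did the 3 ranges of the blood marker sum. Single ganglion cell markers differed. *Pou4f1* averaged 23.0, 23.6 and 19.4 TPM in +/+, Cre/+ and Cre/Cre, *Thy1* 343, 316 and 278 TPM, and *Sncg* 275, 237 and 204 TPM. None of these 3 was called. By cell counts, the paper found no significant difference in RBPMS-positive or POU4F1-positive cells. Of all single genes, 22.2% had libraries that did not overlap in Cre/+ against +/+. This share was 10.8% in Cre/Cre against +/+ and 12% in Cre/Cre against Cre/+. These shares are for single genes between 2 genotypes. The share with 3 separate ranges was not taken, for single genes or for sums. The 4 rod markers summed to 18854 to 19970.2, 18632 to 19430.2 and 16986 to 19315 TPM, with 0 of 4 called. Their part in the values of the 10 genes was not tested. Set against *Gnat1*, the rod transducin, *Rcvrn* was 15.6% to 17.7%, *Grk1* 7.20% to 8.89%, *Gucy2f* 0.851% to 1.26% and *Rgs9* 5.74% to 7.52% of its TPM in the 9 libraries. The means for +/+, Cre/+ and Cre/Cre (SD, n = 3) were 17.2 ± 0.683%, 17.3 ± 0.241% and 16.5 ± 0.909% for *Rcvrn*. They were 7.84 ± 0.703%, 8.55 ± 0.387% and 8.07 ± 0.208% for *Grk1*, and 0.965 ± 0.132%, 1.21 ± 0.0466% and 1.07 ± 0.140% for *Gucy2f*. For *Rgs9* they were 6.18 ± 0.456%, 7.26 ± 0.279% and 6.86 ± 0.483%. These shares were not tested.

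The other genes of the cascade were read as counts. Of 17 activation genes, among them the transducins, phosphodiesterase and the channels, 0 were called in any comparison. *Gnat1* was the highest at 13329.6 TPM and *Cnga3*, of the cone channel, the lowest at 12.5 TPM on average. The smallest p belonged to *Cngb3*, also of the cone channel, in Cre/+ against +/+ (16.1 ± 1.65 against 22.0 ± 1.33 TPM in +/+ and Cre/+, SD, n = 3; log2 fold change 0.43, adjusted p = 0.355), to *Gnb3*, of cone transducin, in Cre/Cre against +/+ (-0.24; adjusted p = 0.543) and to *Gngt1*, of rod transducin, in Cre/Cre against Cre/+ (-0.29; adjusted p = 0.653). Of 9 other recovery and feedback genes, among them *Sag*, *Arr3*, *Rd3*, *Pdc*, *Ppef2*, *Slc24a2* and *Slc24a4*, 0 were called. *Sag*, the rod arrestin that caps the phosphorylated pigment, was the highest of them at 5683 TPM on average. *Arr3*, the cone arrestin, averaged 648 ± 10.3 TPM for +/+, 670.5 ± 61.4 for Cre/+ and 798 ± 54.5 for Cre/Cre (SD, n = 3), with the smallest p of this list in both comparisons of Cre/Cre (log2 fold change 0.30 and 0.25; unadjusted p = 0.00188 and 0.00608; limma, adjusted p = 0.542 and 0.653). The other cone markers went the other way in Cre/Cre against +/+. Their log2 fold changes were -0.18 for *Opn1sw*, -0.14 for *Pde6h*, -0.09 for *Gnat2* and -0.05 for *Opn1mw* (limma, adjusted p = 0.679, 0.806, 0.898 and 0.938).

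Over the 9 libraries the 10 genes had CVs of 4.62% to 13.4% with a median of 7.58%, against a median of 7.37% for the 2091 genes with a mean of at least 100 TPM. Over these libraries, which share their scaling, *Gucy2e* and *Slc24a1* followed the mean of the other 9 genes most closely (Pearson r = 0.993 and 0.980), then *Gucy2f* (0.856), *Rgs9* (0.804), *Grk1* (0.751) and *Rgs9bp* (0.733), with *Rcvrn* (0.467), *Gnb5* (0.422), *Guca1b* (0.388) and *Guca1a* (0.386) least. Of the 45 pairs of genes, *Gucy2f* with *Rgs9* had the highest r (0.970) and *Guca1a* with *Rgs9bp* the lowest (-0.09). Among 10857 other genes with a mean of at least 10 TPM, those most like the mean profile of the 10 were the predicted gene *Gm5148* (r = 0.989), *Hspa4* (0.988), a heat shock protein, *Akap11* (0.985), an anchor of protein kinase A, *Kcnv2* (0.982), a photoreceptor potassium channel subunit, and *Cadps* (0.982), a factor of dense-core vesicle release. *Kcnv2*, for example, was at 463, 433 and 432 TPM in +/+, at 454, 494 and 473 TPM in Cre/+, and at 374, 415 and 459 TPM in Cre/Cre, with its lowest value in Cre/Cre replicate 1 as for most of the 10 genes.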

How the data were processed

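RNA was measured by strand-specific poly(A) RNA-Seq of whole retinas at P42 in 9 libraries, 3 for each genotype, grouped by the genotype in their labels. Per the submitters' processing notes and the methods, the authors used Trimmomatic, FastQC, HISAT2 (mm10), SAMtools, StringTie and DESeq2. Tool versions and the annotation are not given in the sources used here. The TPM, FPKM and coverage deposited by the authors are StringTie's gene values. TPM are scaled to the same sum in every library, FPKM are scaled by gene length and mapped fragments, and the coverage they deposited is read depth per base of a gene. FPKM served as an alternative, and coverage over FPKM gave the aligned sequence. The tables hold no counts, so the precision comes from the spread between libraries, and DESeq2 was not run.

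TPM were summed by gene name. Genes with a mean of at least 1 TPM were tested on log2(TPM + 1) with limma 3.58.1 (R 4.3.3; trend and robust prior, all 9 libraries in 1 model of genotype, 6 residual degrees of freedom), adjusted by Benjamini-Hochberg over all 15198 genes, with a limit of 0.05. With this pseudocount, log2 fold changes of weakly expressed genes come out too small. Ratios within libraries were tested by exact permutation over 1680 assignments. Scripts were tested on simulated data.

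The 10 genes and the lists were chosen with earlier results of these data known. From each list, genes were named by highest or lowest mean TPM or smallest p in a comparison, and the 5 most like genes by Pearson correlation. *Rd3*, *Slc24a4*, *Hbb-bt* and the other blood markers fall outside this rule and were chosen for naming after their values were seen. The same holds for the ganglion cell markers other than *Rbpms* and the cone markers other than *Arr3*. Of the genes listed, 2 are not reported here and stay out of the counts and sums given for their lists. Alternatives were a pseudocount of 0.1, no filter or one of 5 TPM, median-ratio scaling, FPKM, TPM without Rn45s, a replicate block, *Xist* as a covariate, no robust prior, only the genotypes compared, and each library left out. Python 3.11.15 with matplotlib 3.10.9 made the figures.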

Additional observations from a re-analysis of the deposited data

How the results depend on the processing

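No gene of the 10 reached an adjusted p of 0.05 in any of the 19 alternatives, and the smallest adjusted p (limma) was 0.144 in Cre/+ against +/+ (only the genotypes compared), 0.461 in Cre/Cre against +/+ (without Cre/Cre replicate 1) and 0.296 in Cre/Cre against Cre/+ (without Cre/Cre replicate 3). With 3 libraries a genotype and no counts, the spread between libraries limits what can be seen. Between 2 and 4 of the 10 log2 fold changes were below 0 in Cre/+, 5 to 10 in Cre/Cre against +/+ and 8 to 10 in Cre/Cre against Cre/+.

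Single directions turned where the value lay near 0, and the cause was not tested. In Cre/+ against +/+, *Guca1a* was -0.012 with *Xist* as a covariate and -0.032 to 0.126 with each library left out, and *Gnb5* -0.010 to 0.097. In Cre/Cre against +/+, rescaling without Rn45s gave 0.015 for *Rgs9bp*, 0.044 for *Gnb5* and 0.00020 for *Grk1*, median-ratio scaling 0.027 for *Gnb5*, and *Xist* as a covariate 0.026 for *Rgs9bp*. With each library left out, the values ran from -0.132 to 0.014 for *Gucy2e*, -0.071 to 0.176 for *Gucy2f*, -0.018 to 0.152 for *Rgs9*, -0.078 to 0.059 for *Rgs9bp*, -0.030 to 0.026 for *Gnb5*, -0.073 to 0.0032 for *Grk1* and -0.148 to 0.029 for *Slc24a1*. In Cre/Cre against Cre/+, rescaling without Rn45s gave 0.00081 for *Guca1b* and 0.0032 for *Gnb5*, and with each library left out they ran from -0.114 to 0.029 and from -0.099 to 0.0085. Without Cre/Cre replicate 1, in counts added after seeing the data, 5 in place of 8 genes were below 0, 2 in place of 1 had an unadjusted p below 0.05 and 2 in place of 1 did not overlap in Cre/Cre against +/+, and 0 in place of 1 had such a p in Cre/Cre against Cre/+.

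Over all genes, 1, 1 and 2 were called. In Cre/+ against +/+ this was 0 with FPKM and 2 with only the genotypes compared. In Cre/Cre against +/+ it was 3 with a pseudocount of 0.1, 3 with *Xist* as a covariate and 5 with only the genotypes compared. In Cre/Cre against Cre/+ it was 1 with no filter, median-ratio scaling, no robust prior or the replicate block, 5 with a filter of 5 TPM, 6 with FPKM and 6 with *Xist* as a covariate. With each library left out the counts ran from 1 to 5, 1 to 4 and 1 to 8. The labels do not say what the replicate numbers stand for. Same-numbered libraries of different genotypes had correlations of -0.12 to 0.13 in their deviations from the group means, and differently numbered ones -0.19 to 0.26. With 3 libraries a genotype these values cannot exclude a pairing. The replicate block left 0 of 10 genes called in each comparison.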
